A study of Homo sapiens with 3 samples.

Results

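Promoter contacts of 9 receptor genes of the autonomic nervous system were read from promoter capture Hi-C (PCHi-C) of human cardiomyocytes. The genes encode the α1-adrenergic receptors (*ADRA1A*, *ADRA1B*, *ADRA1D*), the α2-adrenergic receptors (*ADRA2A*, *ADRA2B*, *ADRA2C*), the β1- and β3-adrenergic receptors (*ADRB1*, *ADRB3*) and the M2 muscarinic receptor (*CHRM2*). A promoter fragment was a captured HindIII fragment, listed first in a call, that held an annotated transcript start of the gene. A fragment of this kind was found for 8 of the 9 genes, so the receptors account for 8 of the 19075 promoter fragments in the calls and for 118 of the 200587 contacts. *ADRB3* had no promoter fragment in the calls, and of all protein-coding genes 77.1% had one.

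Noradrenaline and adrenaline, released by sympathetic nerves and the adrenal gland, act on adrenergic receptors, and acetylcholine from the vagus nerve acts on muscarinic receptors. All are G protein-coupled receptors. β1-receptors couple to Gs, which stimulates adenylyl cyclase and raises cyclic AMP, and through them the heart beats faster and harder. M2 receptors couple to Gi, which lowers cyclic AMP and opens potassium channels in the sinoatrial node, and through them the heart slows. α1-receptors couple to Gq and phospholipase C, and α2-receptors couple to Gi and restrain the release of noradrenaline from nerve endings. Distant regulatory DNA can lie close to a promoter in the nucleus, and PCHi-C records such proximity by crosslinking, cutting and ligating DNA and enriching the products that carry a promoter.

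The assay had been performed on 3 biological replicates of hESC-CMs, which are cardiomyocytes made from the embryonic stem cell line WA09 (H9) at passage 32 with a commercial differentiation kit and enriched in lactate medium without glucose. All 3 replicates came from this 1 untreated line, and no other cell type was compared, so no group comparison or p-value is given. The labels put the purity at 80 to 90% or more, from flow cytometry and qPCR of *MYH7* and *TNNT2*, and the calls hold no expression values with which the cell type could be checked. A call joins 2 HindIII fragments and carries a CHiCAGO score, which grows with the excess of reads over a background that depends on distance and technical noise. The lowest score listed was 5 in each replicate. A contact that is not listed was therefore not shown to be absent, and read counts and depth were not used here. Replicates 1, 2 and 3 held 112473, 109731 and 110740 contacts.

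The receptor contacts numbered 75 in replicate 1, 80 in replicate 2 and 71 in replicate 3 (mean 75.3 ± 4.51, SD, n = 3). All 3 replicates called 40 of the 118 contacts, 28 were called in 2 replicates and 50 in 1. The share in all 3 replicates was 33.9% (95% Wilson interval 26.0 to 42.8%), beside 24.0% of all contacts in the calls. Contacts of 1 promoter share that fragment and are not independent, so this interval covers counting error only. *ADRA1B* held 23 of the 40 contacts, and without it the share was 17 of 74 (23.0%, interval 14.9 to 33.7%), so the higher share of the receptors rested on this gene.

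The pieces of DNA at the far ends of these contacts are shown first, since they are what the assay identified. The sequences below are from GRCh37, plus strand, 5′ to 3′. The first set gives the low-coordinate end of the partner fragment with the highest mean score among those called in all 3 replicates, for each of the 6 genes that had such a contact. Capitals mark the part of the HindIII site left on the fragment.
*ADRA1B*, chr5:158870583-158870618: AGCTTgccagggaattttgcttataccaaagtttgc
*ADRA1D*, chr20:4575373-4575408: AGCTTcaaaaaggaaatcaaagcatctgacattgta
*ADRA2A*, chr10:113896662-113896697: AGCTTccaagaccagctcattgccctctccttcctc
*ADRA2B*, chr2:96929632-96929667: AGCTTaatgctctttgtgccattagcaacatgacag
*ADRB1*, chr10:115567634-115567669: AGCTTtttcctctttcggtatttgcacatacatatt
*CHRM2*, chr7:135479401-135479436: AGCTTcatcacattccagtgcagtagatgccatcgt

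Partner fragments differed in size, and the smallest can be printed whole. The shortest partner called in all 3 replicates was a 158 bp fragment of *ADRA1B*, in a long non-coding RNA gene, with scores of 7.59, 7.92 and 7.06 in replicates 1, 2 and 3 (mean 7.52 ± 0.43, SD, n = 3). A 75 bp fragment of the *ADRA1D* region was called in no replicate although the fragments on both sides of it were called in all 3. Both are given whole, with the HindIII end in capitals.
*ADRA1B* partner, chr5:158931235-158931392: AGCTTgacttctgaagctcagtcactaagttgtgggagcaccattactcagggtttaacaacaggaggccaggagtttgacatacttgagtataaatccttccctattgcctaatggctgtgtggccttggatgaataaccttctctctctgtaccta
*ADRA1D* fragment without a call, chr20:4575298-4575372: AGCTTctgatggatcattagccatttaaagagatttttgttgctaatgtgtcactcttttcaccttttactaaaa

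The number of contacts differed widely between the receptor genes. *ADRA1B* had 34, 35 and 28 contacts in replicates 1, 2 and 3 (mean 32.3 ± 3.79, SD, n = 3), and its 44 contacts in the union exceeded those of 96.5% of all promoter fragments. *ADRA2A* followed with 11, 13 and 12 (12 ± 1.00), which no replicate of *ADRA1B* approached. *ADRA1D* had 9, 9 and 10 (9.33 ± 0.577) and *ADRA2B* had 6, 11 and 8 (8.33 ± 2.52). *ADRA2A* lay above *ADRA1D* in every replicate, whereas *ADRA2B* overlapped both in its range.

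By the mean number of contacts per replicate, the genes of the main cardiac receptors were in the lower part of the order. In replicate 1, however, *ADRB1* with 8 was above *ADRA2B* with 6. *ADRB1* had 8, 3 and 5 contacts in replicates 1, 2 and 3 and *CHRM2* had 6, 5 and 5, both with a mean of 5.33 (SD 2.52 and 0.577, n = 3). The range of *ADRB1* contained that of *CHRM2*, and the pair could not be ordered. On the merged replicates the place of *ADRB1* changed, since it had 20 contacts there, below *ADRA1B* with 54 and above *ADRA2A* with 18, *ADRA1D* and *ADRA2B* with 13 each and *CHRM2* with 9. *ADRA2C* had 1, 3 and 2 contacts (2.00 ± 1.00) and *ADRA1A* had 0, 1 and 1, and none of these was called in more than 1 replicate. In the union, the median was 10.5 contacts per receptor promoter fragment, against a median of 6 and a mean of 11.5 over all promoter fragments.

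**Figure D1:**
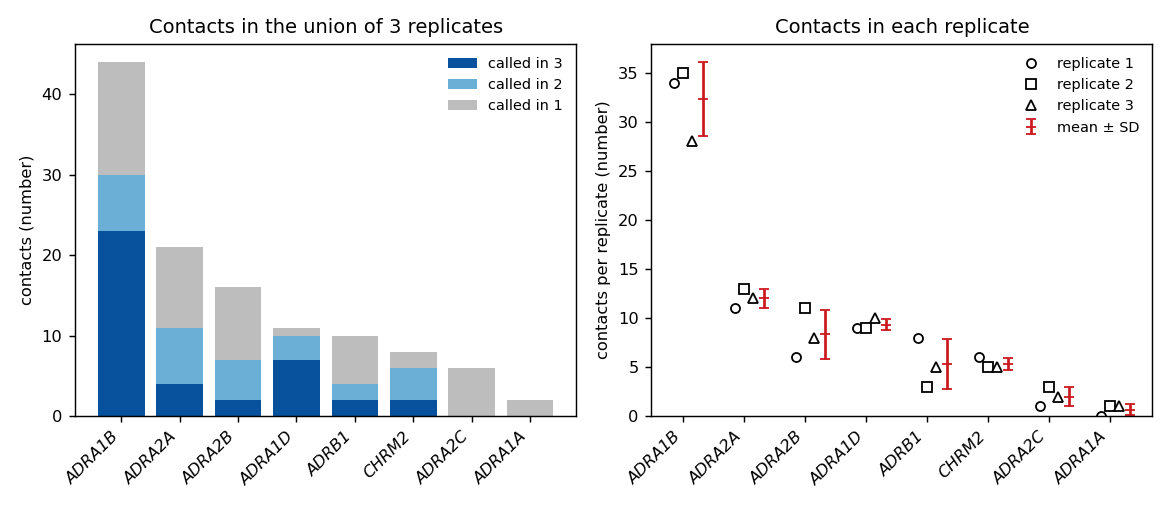
The left panel gives the number of contacts of each receptor gene in the union of 3 replicates, coloured by the number of replicates that called them, and the right panel the number in each replicate with the mean and SD (n = 3). *ADRA1B* stands apart at 28 to 35 contacts per replicate, and *ADRA2C* and *ADRA1A* have no contact called in 2 or 3 replicates.

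A contact called in all 3 replicates was present for 6 of the 8 receptor promoter fragments, beside 51.9% of all promoter fragments. These genes were *ADRA1B* with 23 such contacts, *ADRA1D* with 7, *ADRA2A* with 4 and *ADRA2B*, *ADRB1* and *CHRM2* with 2 each. The share of a gene's contacts called in all 3 replicates ran from 63.6% (95% Wilson interval 35.4 to 84.8%) for *ADRA1D* and 52.3% (37.9 to 66.2%) for *ADRA1B* to 12.5% (3.50 to 36%) for *ADRA2B*. For *ADRA2A* it was 19.0%, for *ADRB1* 20.0% and for *CHRM2* 25%, with intervals that overlapped each other.

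*ADRA1B*, the gene of the α1B-receptor, lies on chromosome 5 on the plus strand from 159292087 to 159400019, and its promoter fragment spanned chr5:159341749-159345488. Its contact with the highest score joined it to chr5:158870583-158872345, 472 kb upstream, in the long non-coding RNA gene ENSG00000249738 between *IL12B* and *ADRA1B*. The scores were 27.65, 26.67 and 27.04 in replicates 1, 2 and 3 (mean 27.1 ± 0.49, SD, n = 3). The replicates differed little, and the mean was the highest of any receptor contact called in all 3. A further coding start of *ADRA1B*, at 159292087, lies in the fragment chr5:159276938-159294379. That fragment was listed in no call, so no statement on contacts of this start can be made.

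The next contact of *ADRA1B* joined it to another promoter. The partner, chr5:158754122-158759441, held the transcript start of *IL12B*, which encodes the p40 subunit shared by interleukin 12 and interleukin 23. It lay 587 kb upstream and scored 22.03, 22.95 and 19.56 (21.5 ± 1.75). The third, chr5:158872346-158882550, directly adjoined the first and scored 18.09, 21.52 and 18.91 (19.5 ± 1.79). The scores of the first contact did not overlap those of the other two, which overlapped each other in replicates.

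Most contacts of *ADRA1B* fell into a pair of large upstream blocks, taking as a block the called fragments on 1 chromosome with gaps of at most 25 kb. The nearer block, chr5:158836045-158977237, lay between *IL12B* and *ADRA1B* with no coding gene in it. Of its 36 HindIII fragments, 22 were called, 12 of them in all 3 replicates. The farther block, chr5:158690995-158791392, covered *IL12B* and part of *UBLCP1*, which encodes a phosphatase of the proteasome, and 18 of its 32 fragments were called, 10 of them in all 3 replicates. Both blocks were present in each replicate, with 19, 16 and 14 called fragments in the nearer and 13, 16 and 11 in the farther. Another, small block, chr5:158581408-158589111 at *RNF145*, lay 757 to 761 kb upstream, and both of its fragments were called in 2 replicates, with mean scores of 6.03 and 5.30.

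Other partners of *ADRA1B* with a transcript start were called in all 3 replicates. A fragment with an exon of *IL12B* and the start of the pseudogene *RNU4ATAC2P* scored 13.08, 12.3 and 16.57 (13.98 ± 2.27) at 598 kb. A fragment with the start of the non-coding gene *AC008706.1*, between *PWWP2A* and *FABP6*, scored 8.78, 5.44 and 5.7 (6.64 ± 1.86) at 212 kb. It was the only downstream contact among the 44 of *ADRA1B*, and 12 other promoter fragments contacted it, the most for any receptor partner called in all 3 replicates. By contrast, 10 of the 23 partners of *ADRA1B* in all 3 replicates were contacted by no other promoter.

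*ADRA1D*, the gene of the α1D-receptor, lies on the minus strand of chromosome 20 from 4201277 to 4229934, and its promoter fragment spanned chr20:4223812-4231069. All 11 of its contacts lay upstream, from 311 to 490 kb away. The highest, with chr20:4575373-4576091, a 719 bp fragment, scored 27.35, 22.85 and 24.47 in replicates 1, 2 and 3 (24.9 ± 2.28, SD, n = 3) at 348 kb. This range overlapped that of the highest *ADRA1B* contact.

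The remaining contacts of *ADRA1D* were much weaker. The fragment chr20:4563950-4565898 scored 11.29, 13.74 and 14.97 (13.3 ± 1.87), and chr20:4568840-4575297, which holds the ribosomal protein pseudogene *RPL7AP12*, scored 11.99, 11.74 and 11.74 (11.8 ± 0.14). These overlapped each other and stayed below the highest contact in every replicate. All 3 fragments belonged to 1 block, chr20:4536372-4586020, between *ADRA1D* and the prion protein gene *PRNP*, in which 8 of 14 fragments were called, 6 of them in all 3 replicates. The 75 bp fragment printed above lies in this block, between the first and the third.

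A farther block of *ADRA1D*, chr20:4694698-4717471, covered *PRND*, a gene related to *PRNP* that encodes the doppel protein. Its fragment called in all 3 replicates, chr20:4716706-4717471 with the start of the pseudogene *IDI1P3*, scored 5.77, 5.32 and 7.56 (6.22 ± 1.18) at 490 kb. A fragment with an exon of *PRND*, chr20:4702846-4705727, scored 9.5 and 7.54 in replicates 1 and 2. Of the *PRND* contacts it had the higher scores. The fragment with the start of *PRND* scored 5.43 and 5.66 in replicates 1 and 3. *ADRA1D* has a further annotated start at a fragment that was not a promoter fragment in the calls, chr20:4201786-4203583. The *PRND* promoter contacted that fragment at 6.2 and 6.8 in replicates 1 and 2, and the *PRNP* promoter contacted it at 5.3 in replicate 2.

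**Figure D2:**
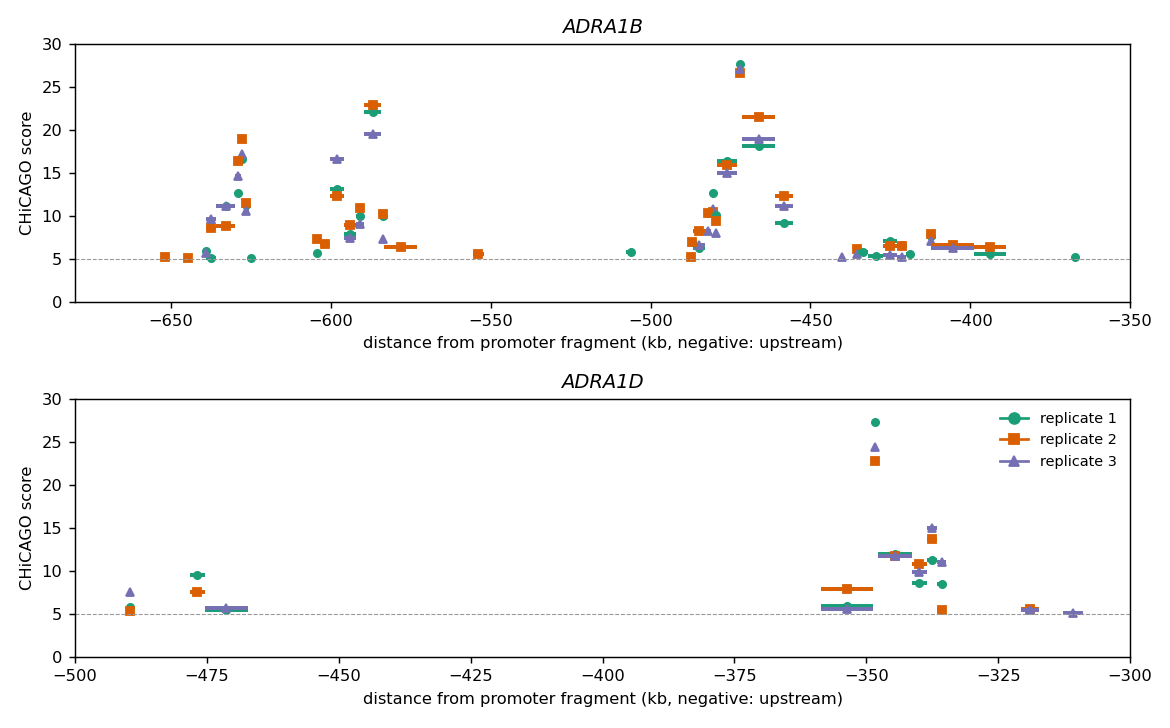
CHiCAGO score of each called partner fragment of *ADRA1B* and *ADRA1D* in each replicate against its distance from the promoter fragment in kb, with horizontal lines for the width of the fragments and a dashed line at the lowest listed score of 5. Contacts outside the window are not drawn. *ADRA1B* shows a block around its peak of 27.1 at 472 kb and another around 587 kb. *ADRA1D* shows a peak of 24.9 at 348 kb with weaker fragments near it and a farther, weaker block at 471 to 490 kb.

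*ADRA1A*, the gene of the α1A-receptor, lies on chromosome 8, and its promoter fragment had only 2 contacts. They scored 5.92 in replicate 3 and 5.17 in replicate 2, over 21521 and 101225 kb, and no replicate called a contact of *ADRA1A* within 1 Mb. The α1 genes thus ranged from 2 to 44 contacts. Further annotated starts of *ADRA1A* lie in chr8:26708861-26713699, a fragment listed in no call.

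*ADRA2A*, the gene of the α2A-receptor, lies on the plus strand of chromosome 10 from 112836787 to 112840665, with its promoter fragment at chr10:112832585-112839323. All 20 of its contacts on chromosome 10 in the replicates lay downstream and over 1 Mb away, the nearest at 1049 kb. A nearer contact, at 522 kb, was called on the merged replicates alone, with a score of 5.84. The 3 highest in all 3 replicates were adjoining fragments between *ADRA2A* and *GPAM*, which encodes the mitochondrial glycerol-3-phosphate acyltransferase.

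The first, chr10:113896662-113898095, scored 9.85, 8.59 and 7.77 in replicates 1, 2 and 3 (8.74 ± 1.05, SD, n = 3) at 1061 kb. The second, chr10:113895303-113896661, scored 6.73, 6.54 and 9.91 (7.73 ± 1.89), and the third, chr10:113898096-113898530, scored 5.7, 5.14 and 10.66 (7.17 ± 3.04). Replicate 1 had its highest score at the first fragment and replicate 3 at the third, so the 3 could not be ordered beyond the spread between replicates.

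These partners belonged to a block, chr10:113884465-113911864, in which 11 of 13 fragments were called, 4 of them in all 3 replicates. Replicates 1, 2 and 3 called 5, 7 and 10 of its fragments. A further block of *ADRA2A*, chr10:114068292-114081971 over the pseudogene *GUCY2GP*, had 7 of 8 fragments called but none in all 3 replicates, with 4, 5 and 1 in replicates 1, 2 and 3. Replicate 3 thus had the most calls of *ADRA2A* in the nearer block and the fewest in the farther.

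*ADRA2A* also contacted the fragment with the start of *ACSL5*, which encodes a long-chain acyl-CoA synthetase, at 8.34 and 11.74 in replicates 1 and 2 and not in replicate 3. This contact, named for its score after the values were seen, had a higher mean in those replicates than any called in all 3, and it was not called on the merged replicates. A contact with chromosome 2, inside an intron of *ARHGEF4*, scored 17.45 in replicate 3 alone.

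The partners of *ADRA2A* held the only matches of the receptors to a 14-letter form of the CTCF core motif, searched on both strands. CTCF is a DNA-binding protein that marks many ends of chromatin loops. This search was added after the contacts were seen. The matches lay in the highest partner and in a partner of the *GUCY2GP* block that scored 5.36 and 5.48 in replicates 1 and 2. They are printed with the match in capitals and 25 bases on each side, and both matches are on the minus strand.
*ADRA2A*, highest partner, chr10:113897300-113897363: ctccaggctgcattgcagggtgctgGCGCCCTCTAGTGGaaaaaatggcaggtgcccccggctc
*ADRA2A*, partner in *GUCY2GP*, chr10:114074771-114074834: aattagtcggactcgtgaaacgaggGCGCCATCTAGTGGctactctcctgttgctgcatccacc

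Of the 118 receptor partners, 2 (1.69%) held this form, beside 0.760% of all partner fragments. Among partners called in all 3 replicates it was 1 of 40 (2.50%) beside 1.20%. The highest *ADRA2A* partner is 1434 bp long, and 0.342% of partner fragments within 10% of that length held the form. Shorter forms of 13 and 12 letters, which overlap the first, were found in 4 and 5 receptor partners called in all 3 replicates. No receptor promoter fragment held the 14-letter form. A match to letters shows neither binding nor a function, and at 1 or 2 fragments these shares separate nothing.

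*ADRA2B*, the gene of the α2B-receptor, lies on the minus strand of chromosome 2 from 96778624 to 96782310, with its promoter fragment at chr2:96780361-96788417. Its highest contact in all 3 replicates, with chr2:96929632-96930537 inside an intron of *TMEM127*, scored 7.46, 8.86 and 6.76 (7.69 ± 1.07, SD, n = 3) at 146 kb upstream. The adjoining fragment chr2:96930538-96932897, with the starts of *TMEM127* and of *CIAO1*, which encodes a factor of cytosolic iron-sulphur protein assembly, scored 5.89, 6.24 and 5.64 (5.92 ± 0.30). The first was higher in every replicate. They were the nearest contacts in all 3 replicates of any receptor gene.

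A farther block of *ADRA2B*, chr2:97131232-97199226, lay between *NCAPH* and *ARID5A* and spanned *NEURL3*, which none of its called fragments overlapped. In this block 9 of 17 fragments were called, 4 of them in 2 replicates and none in all 3. Each replicate called some, with 4, 5 and 4. The fragment chr2:97178020-97180783 scored 5.37 in replicate 1 and 10.54 in replicate 3 and was not called in replicate 2.

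*ADRA2C*, the gene of the α2C-receptor, lies wholly inside its promoter fragment, chr4:3761321-3774298. Each of its 6 contacts was called in 1 replicate, with scores from 5.01 to 7.72, and 5 of them lay downstream over more than 1 Mb. The highest, 7.72 in replicate 1, joined it to chr4:8518663-8522673 between *TRMT44* and *GPR78*, 4753 kb away. None was called on the merged replicates. With *ADRA1A*, it was 1 of the 2 receptor promoters with no repeated contact.

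*ADRB1*, the gene of the β1-receptor, also lies wholly inside its promoter fragment, chr10:115798543-115807451 on the plus strand. Its highest contact was with chr10:115567634-115583223, 228 kb upstream between *PLEKHS1* and *DCLRE1A*. That fragment holds a start annotated as the small nucleolar RNA *SNORA17* and is itself a captured promoter fragment. The scores were 10.58, 10.42 and 11.46 in replicates 1, 2 and 3 (10.8 ± 0.56, SD, n = 3), and the contact was listed with *ADRB1* in the second column in each of them.

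The other contact of *ADRB1* in all 3 replicates, with chr10:115558868-115560467 at 243 kb, scored 5.24, 5.78 and 7.2 (6.07 ± 1.01). It stayed below the first in every replicate. These lie in 1 block, chr10:115558868-115583223, where 3 of 6 fragments were called. Between this block and the promoter, small groups of called fragments lay in *NHLRC2*, the neighbouring gene. The contact nearest to the promoter, at 148 kb in an intron of *NHLRC2*, scored 5.61 and 5.46 in replicates 1 and 3.

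A contact of *ADRB1* with chromosome 5, at the start of *MYOZ3*, which encodes a Z-disc protein of striated muscle, scored 14.07 in replicate 1 and was called in no other replicate and not on the merged replicates. It is named here as the highest score of *ADRB1* in any replicate. Replicate 1 alone accounted for 4 of the 10 contacts of *ADRB1*, and without it 6 remained.

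*CHRM2*, the gene of the M2 receptor, lies on the plus strand of chromosome 7 from 136553399 to 136705002, with its promoter fragment at chr7:136551818-136556240. All 8 of its contacts lay upstream, from 466 to 1207 kb away. The highest, with chr7:135479401-135491267 between *FAM180A* and *MTPN* at 1069 kb, scored 9.25, 6.82 and 9.09 (8.39 ± 1.36, SD, n = 3), and this fragment holds the start of the non-coding gene *AC091736.1*. The other in all 3 replicates was at the start of *STMP1*, which encodes a small mitochondrial protein, and scored 8.43, 9 and 6.69 (8.04 ± 1.20) at 1207 kb. Their ranges overlapped, so the pair could not be ordered.

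Among contacts in all 3 replicates these 2 were thus the farthest of any receptor gene, and both joined it to other captured promoter fragments. The *STMP1* fragment opened a block, chr7:135346487-135358167, in which 3 of 4 fragments were called. The remaining contacts lay in the interval between *MTPN* and *CHRM2*. The nearest, at 466 kb, scored 5.27 and 6.27 in replicates 1 and 3.

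*ADRB3*, the gene of the β3-receptor, has its annotated starts in the fragment chr8:37816560-37840494. That fragment was listed in neither column in any replicate, and not on the merged replicates. Whether it had been captured was not determined here, so no statement on its contacts can be made.

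**Figure D3:**
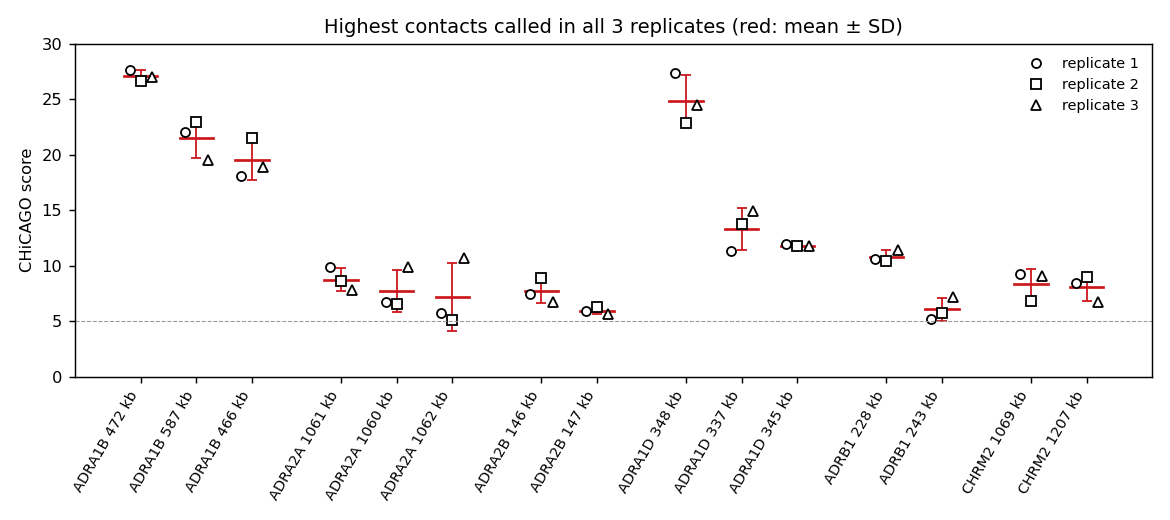
CHiCAGO scores in replicates 1, 2 and 3 of the highest contacts called in all 3 replicates, at most 3 per gene, labelled with the distance in kb, with the mean and SD (n = 3) in red and a dashed line at the lowest listed score of 5. The highest contacts of *ADRA1B* and *ADRA1D* reach means of 27.1 and 24.9, and the contacts of *ADRA2A*, *ADRA2B*, *ADRB1* and *CHRM2* lie between 5 and 12.

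Among contacts called in all 3 replicates, the highest of *ADRA1B* and *ADRA1D* were above those of the other receptor genes in every replicate. *ADRB1* came next with 10.42 to 11.46, above *ADRA2A* (7.77 to 9.85), *CHRM2* (6.82 to 9.25) and *ADRA2B* (6.76 to 8.86) in each replicate. The last 3 overlapped. The place of *ADRB1* turned under other settings. On the merged replicates its highest score was 10.39, below *CHRM2* (12.29), *ADRA2B* (11.36) and *ADRA2A* (11.12), and with the promoter in the first column only its mean was 6.07. Over the 40 contacts in all 3 replicates the median mean score was 8.92, beside 8.32 for all contacts in all 3, and 8.04 without *ADRA1B*. The SD of a score between replicates had a median of 1.18 and ran from 0.0862 to 3.04.

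Receptor contacts with higher scores were called in more replicates, and the highest of 3 scores is taken over more values where more replicates called a contact. Of the 47 receptor contacts whose highest score was from 5 to below 6, 1 was called in all 3 replicates (1.99% of all such contacts). From 6 to below 8 it was 8 of 32 (18.0% of all), from 8 to below 10 it was 9 of 13 (43.5% of all), and at 10 or more it was 22 of 26 (70.6% of all). The 4 contacts at 10 or more that were not in all 3 replicates were those of *ADRA2A* with *ACSL5* and chromosome 2, of *ADRB1* with chromosome 5 and of *ADRA2B* with chr2:97178020-97180783. *ADRA1B* supplied 15 of the 26 contacts at 10 or more, all of them called in all 3 replicates. In each class the share over all contacts lay inside the 95% Wilson interval of the receptors.

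**Figure D4:**
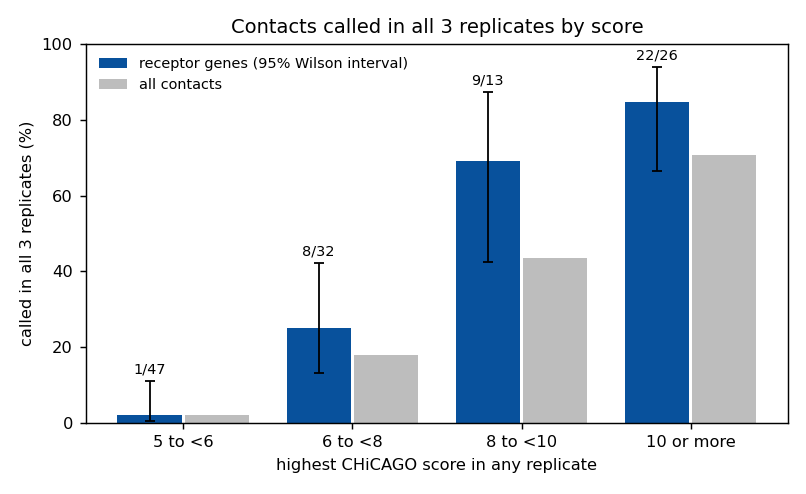
Share of contacts called in all 3 replicates (%) by the highest CHiCAGO score in any replicate, for the receptor genes (blue, with 95% Wilson intervals for counting error and the counts above) and for all contacts (grey). The share of receptor contacts rises from 1 of 47 to 22 of 26, beside 1.99% to 70.6% of all contacts.

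Distance and direction were described over the 8 promoters together. Within 1 Mb lay 67.8% of the receptor contacts, beside 55.7% of all contacts. *ADRA1B* supplied 43 of these, and without it 37 of 74 lay within 1 Mb, a smaller share than that of all contacts. Of the 80 contacts, 34 (42.5%) were called in all 3 replicates, against 34.0% of all contacts at this distance, and 11 of 37 without *ADRA1B*. Over 1 Mb it was 6 of 36 (16.7%, all contacts 11.8%), and these 6 belonged to *ADRA2A* and *CHRM2*. Contacts with other chromosomes numbered 2 of the 118, beside 3.87% of all contacts, and none was called in more than 1 replicate, whereas 8.95% of all such contacts were called in all 3.

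Receptor contacts called in all 3 replicates had a median distance of 480 kb, those called in 2 replicates 546 kb and those called once 664 kb. The same medians over all contacts were 395, 539 and 1261 kb. Pooled receptor contacts in all 3 replicates were thus at longer median distance than all such contacts, and those in 1 replicate at shorter. Neither held gene by gene. Contacts in 1 replicate had medians of 2550 kb for *ADRA2C* and 61373 kb for *ADRA1A*, above the 1261 kb. *ADRA1B* supplied 14 of the 50 contacts in 1 replicate. Medians in all 3 replicates were 147 kb for *ADRA2B*, 235 kb for *ADRB1* and 345 kb for *ADRA1D*, below the 395 kb. They were 482 kb for *ADRA1B*, which held 23 of the 40 contacts, 1062 kb for *ADRA2A* and 1138 kb for *CHRM2*. Relative to the direction of transcription, 35 of the 40 contacts in all 3 replicates lay upstream and 5 downstream, and the latter were 4 of *ADRA2A* and 1 of *ADRA1B*. Direction was not counted over all contacts, so no preference particular to the receptors can be read from these counts. Most of the upstream contacts came from *ADRA1B* and *ADRA1D*.

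**Figure D5:**
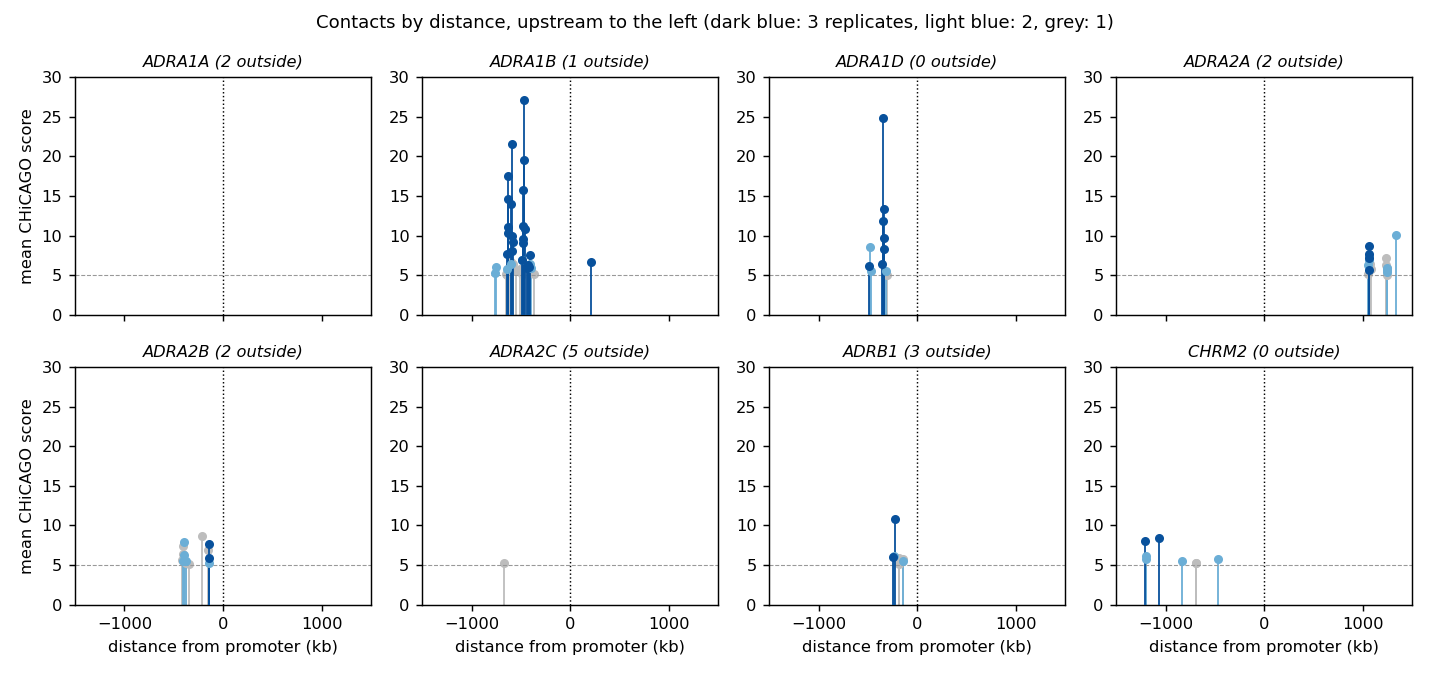
Mean CHiCAGO score of each contact against its distance from the promoter in kb, upstream to the left, for the 8 receptor genes, coloured by the number of replicates that called it, with a dashed line at the lowest listed score of 5. The number in each title counts contacts beyond 1500 kb or on another chromosome, which are not drawn. *ADRA2A* has its contacts downstream near 1061 kb, and those of the other genes with contacts in all 3 replicates lie mostly upstream.

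Of the 40 partners in all 3 replicates, 31 overlapped no coding gene, 8 overlapped an exon of one and 1 lay in introns only. No call joined a receptor promoter to a partner inside its own gene or to the promoter of another receptor gene. For *ADRB1* and *ADRA2C*, which lie wholly inside their promoter fragments, a partner inside the gene was not possible. Of the 8 promoter fragments, only those of *ADRA2A* and *ADRB1* lie on the same chromosome. These counts therefore say little about such contacts. Of the 40 contacts, 24 had no start of another coding gene between promoter and partner, and the others had up to 4. Starts of the receptor gene itself were not counted. For *ADRA1B*, its own coding start at 159292087 lies between the promoter fragment and the upstream partners. The partner was itself a promoter fragment in 15 of the 118 contacts (12.7%), beside 9.59% of all contacts. Among the 40 it was 7, of which *ADRA1B* had 3, *CHRM2* 2 and *ADRA2B* and *ADRB1* 1 each. The counts among the 40 were not made over all contacts in all 3 replicates, and *ADRA1B* held 23 of the 40. They therefore show no feature particular to the receptors.

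Many called partners of the receptors lay close to each other. Of the 118 contacts, 96 belonged to a block of called fragments, among them 38 of the 40 in all 3 replicates, 25 of the 28 in 2 and 33 of the 50 in 1. A fragment directly adjoining one called in all 3 replicates was found for 32 of the 40, 5 of the 28 and 7 of the 50. Most single-replicate receptor contacts thus lay within a block, and few lay directly beside one called in all 3 replicates. The blocks of *ADRA1B* alone held 2, 18 and 22 of the contacts. Blocks were not counted over all contacts, so whether the receptors differ in this was not tested.

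Some partners were shared with neighbouring promoters. By the Jaccard index, the number of shared partners over the number that either promoter contacted, the promoter most like *ADRA2B* was that of *DUSP2*, a phosphatase of MAP kinases (0.297, 11 shared partners), 24.0 kb away. For *ADRA1D* it was *SMOX*, which encodes spermine oxidase (0.286, 4 shared, 125 kb), for *ADRA1B* it was *TTC1* (0.198, 16 shared, 95.1 kb), for *ADRB1* it was *VWA2* (0.188, 3 shared, 196 kb) and for *ADRA2A* the fragment with the starts of *BBIP1* and *SHOC2* (0.120, 3 shared, 157 kb). *CHRM2* and *ADRA2C* shared at least 3 partners with no promoter, and *ADRA1A*, with only 2 partners, could not do so. Of the 40 partners in all 3 replicates, 16 were contacted by no other promoter, and the median was 1. *ADRA1B* held 10 of the 16, and the same count was not made over all partners.

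The promoter fragments themselves had a base composition above the middle of all promoter fragments. Their GC content ran from 48.8% for *ADRB1* to 62.3% for *ADRA2C*, each above the median of 46.3%. They held 38.8 to 56.1 CpG dinucleotides per kb, beside a median of 18.6, with *ADRA1B* the lowest and *ADRA2A* the highest. *ADRA1B*, with the most contacts, and *ADRA1A*, with the fewest, had similar CpG density, 38.8 and 41.3 per kb.

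The receptors were set beside 46 other genes of the same signalling chain, and 36 of these had a promoter fragment in the calls. A contact in all 3 replicates was present for 26 of the 46 (56.5%) and for 6 of the 9 receptor genes (66.7%), beside 43.1% of all protein-coding genes. By class it was 3 of the 4 other muscarinic receptor genes, 8 of 10 genes of G protein subunits, 4 of 9 genes of receptor kinases, arrestins and RGS proteins, 4 of 9 of protein kinase A and its anchors, 4 of 5 of effector channels and phospholipase C, and 3 of 9 of transmitter synthesis and removal. With so few genes per class, the classes were not ordered.

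The pathway genes with the most contacts in all 3 replicates were *AKAP12*, which encodes an anchor of protein kinase A, with 43, *GNAS*, the gene of the Gs α-subunit, with 27, *GNAI3*, a Gi α-subunit gene, with 19, *PLCB4*, a phospholipase C gene, with 14 and *RGS4*, which encodes a regulator that shortens G protein signals, with 13. These are totals over 2 promoter fragments for *AKAP12* and 3 for *GNAS*, and over 1 each for *GNAI3*, *PLCB4*, *RGS4* and *ADRA1B*, which had 23. Genes with a promoter fragment but no contact in all 3 replicates were *CHRM3*, *GNAO1*, *GRK6*, *PRKACB*, *PRKAR1A*, *AKAP5*, *PLCB3*, *TH*, *PNMT* and *MAOA*. *CHAT* and *SLC18A3*, which make and load acetylcholine, share 1 promoter fragment and so the same 14 contacts.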

How the data were processed

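Deposited PCHi-C calls of hESC-CMs, 1 set for each of 3 replicates, were used, with those on the merged replicates as an alternative. The authors mapped reads to GRCh37 with HiCUP and called contacts with CHiCAGO at default settings, and the deposited score of each pair of HindIII fragments was not recomputed. Versions were not given in the sources used here. No read was mapped again.

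Transcript starts came from GENCODE 44 lifted to GRCh37. Contacts were unordered fragment pairs in the union of the replicates' calls, and distances are between midpoints. The ends of the 8 promoter and 118 partner fragments were checked against HindIII sites. A mean over fewer than 3 replicates covers those that called the contact. Named contacts were the 3 highest means per gene among those in all 3 replicates, partners with a transcript start in all 3, the promoter with the highest Jaccard index, and the pathway genes with most or no such contacts. Other contacts given with scores were chosen after their values were seen. Members and gene lists were chosen with earlier results of these data known.

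The counting was tested on simulated data. Alternatives were scores of at least 7 or 10, each replicate left out, the merged calls, matching within 5 kb, same-chromosome contacts, at most 1 Mb, column 1 only and coding starts only. Python 3.11.15, numpy 2.4.6, pysam 0.24.0, matplotlib 3.10.9 and samtools 1.23.1 were used.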

Additional observations from a re-analysis of the deposited data

Results flagged for a closer look

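Contacts called on the merged replicates but in no single replicate were flagged for *ADRA1A* and *ADRB1*, because they lie outside the calls used for the comparisons. The merged calls held 134 receptor contacts, of which 42 (31.3%) were called in no replicate, beside 25.5% of all merged contacts. *ADRA1A*, which had no contact within 1 Mb in any replicate, had 7 on the merged replicates, with scores from 5.34 to 8.26 at 163 to 340 kb. Of them, 3 lay between *DPYSL2* and *ADRA1A* and 4 between *ADRA1A* and *STMN4*, and its 2 contacts of single replicates were not among them. *ADRB1* had 13, with scores from 5.26 to 7.42 at 135 to 274 kb. Of these, 7 overlapped *NHLRC2*, 2 overlapped *DCLRE1A*, 1 overlapped *PLEKHS1* and 3 lay between *PLEKHS1* and *DCLRE1A*. The merged calls hold the same 3 replicates, so they are no independent repeat.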

How the results depend on the processing

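With a score of at least 7, 48 contacts remained, 23 of them in all 3 replicates (47.9%), with 3.5 per gene as the median, a median distance of 483 kb and a median highest score of 17.9. With a score of at least 10 these were 26, 13 (50.0%), 1.5, 480 kb and 24.9, and 17.4% of the pathway genes kept a contact in all 3 replicates. Fewer contacts and genes enter at these thresholds by construction. Leaving out 1 replicate, and requiring the other 2, gave a share of 48.0 to 49.0%, a median distance of 486 to 587 kb, 98 to 104 contacts, 48 to 51 in all, 9.5 to 10.0 per gene, a highest score of 9.58 to 10.3 and 63.0 to 67.4% of pathway genes. On the merged replicates the median distance was 449 kb and the highest score 11.4. Matching within 5 kb put 74 contacts (62.7%) in all 3 replicates. Within 1 Mb there were 5.5 contacts per gene at a median of 438 kb, with a highest score of 17.9, over 4 genes. With the promoter in column 1 only, the median highest score was 8.56, since the highest contact of *ADRB1* is listed with it in column 2 and its value became 6.07. Without *ADRA1B*, an alternative chosen after seeing the data, there were 74 contacts, 17 in all 3 replicates (23.0%), at a median of 765 kb instead of 581 kb. Without replicate 3, the highest contact of *ADRA2A* was that with *ACSL5*, at 10.0. Of 133 values of single genes under these alternatives, 100 stayed close to the reported value, within 1.5 times for a count and within 1 SD for a highest score, and 33 moved further.

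All 40 contacts in all 3 replicates were also called on the merged replicates, as were 26 of the 28 in 2 and 26 of the 50 in 1. The merged score exceeded the highest replicate score for 38 of the 40. The other 2, the highest contact of *ADRB1* (9) and that of *ADRA1B* with *AC008706.1* (5.96), join promoter fragments and were listed with the receptor in column 2. These traits did not set them apart. They were shared by the contacts of *ADRA1B* with *IL12B* and *RNU4ATAC2P* and of *ADRA2B* with *TMEM127* and *CIAO1*. The merged scores of those were 32.42, 18.81 and 8.84, above each of their replicate scores. No paired analysis was possible because there is 1 group. Scores under 5 are not listed, and the depth behind each score is unknown.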
